A study of Mus musculus with 8 samples.

Results

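The 44 genes described here pass on signals from the T cell antigen receptor or sit on the T cell surface. They comprise 10 kinases and other signalling enzymes, 10 adaptors and their partners, 3 NFAT transcription factors, 10 surface and adhesion molecules, 6 costimulators and coinhibitors, 4 cytokine receptor chains, and Dntt, the template-free DNA polymerase that diversifies antigen receptor genes. They were chosen by name, and all 44 were found among the 13681 gene symbols of the deposited table, each as the transcript entry with the highest mean. RNA was sequenced from 8 thymic lymphomas, tumours of developing T cells, of C57BL/6 mice aged 10 weeks. All mice lacked p53 (p53-/-), and all tumours received an adenovirus by direct injection 48 hours before the tissue was taken. The 2 control tumours (ΔNfl/fl;p53-/-) received Ad-mCherry, a virus with a fluorescent marker alone. The 3 tumours labelled ΔNp63Δ/Δ;p53-/- and the 3 labelled ΔNp73Δ/Δ;p53-/- received Ad-CRE-mCherry, which also carries Cre recombinase. ΔNp63 and ΔNp73 are the forms of the p53 relatives p63 and p73 that lack the amino-terminal transactivation domain. The controls differ from the other groups in virus as well as genotype, so Cre and a deletion cannot be told apart in either comparison with control. The control label does not say which ΔN gene is floxed, and no label shows that a group's libraries are from different mice, which means that the p-values describe the spread of these samples and no more. Levels are FPKM, read fragments counted per kilobase of a transcript and scaled to the size of the library, which the authors quantile-normalised. The depth of the libraries is unknown.

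A T cell reads its antigen through the T cell receptor. The kinase Lck phosphorylates the receptor's CD3 chains, the kinase Zap70 docks there, and Zap70 then phosphorylates the adaptors Lat and Lcp2 (SLP-76), on which phospholipase C gamma (Plcg1), the exchange factor Vav1 and other partners assemble. Calcium released downstream activates the NFAT factors, while diacylglycerol activates Rasgrp1, an activator of Ras, and the kinase Prkcq, which acts through Bcl10 and Malt1 on NF-kB. In the thymus the strength of this signal decides which thymocytes live. Immature thymocytes carry much Cd24a and Dntt, whereas thymocytes about to leave carry S1pr1, the receptor for the lipid that draws them into the blood.

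The RNA did not show the labelled deletion. Trp63, the gene that encodes p63, was at 5.21 and 3.38 FPKM in the 2 control libraries, 6.58, 1.05 and 9.90 in the ΔNp63-labelled libraries and 13.8, 11.3 and 6.38 in the ΔNp73-labelled libraries. The ΔNp63-labelled libraries thus ranged from below to above the controls. The labels do not say which stretch of the gene is removed, so this level may not test the deletion. Trp73 was not analysed here. The groups are therefore named by their labels throughout, and every direction given below rests on them.

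ΔNp63 replicate 2 was unlike the 7 other libraries, and each result is given with and without it. Its median correlation with the others across all genes tested was 0.847, against 0.915 to 0.956 for each other library. Defining T cell markers were present in every library: the summed FPKM of 7 core genes (Cd3d, Cd3e, Cd3g, Cd247, Cd4, Cd8a and Cd8b1) was 2793 and 3010.4 in the controls, 2126, 1146 and 2697 in the ΔNp63-labelled group and 1417, 1879.8 and 2213 in the ΔNp73-labelled group. The core sum was thus lower than in both controls in all 6 other libraries, and lowest in ΔNp63 replicate 2. Of 4 genes of immature thymocytes (Rag1, Rag2, Ptcra and Arpp21), the summed level was 765 to 1088 FPKM in the controls, 427, 66.2 and 706 in the ΔNp63-labelled libraries and 343 to 692 in the ΔNp73-labelled group. The fibroblast sum lay above both controls in all 6 other libraries. The macrophage sum did so in all but ΔNp63 replicate 2, which lay between the controls. The 10 macrophage and monocyte genes summed to 336 to 381 FPKM in the controls, to 884, 376 and 927 in the ΔNp63-labelled libraries and to 877 to 1169 in the ΔNp73-labelled group. The 6 fibroblast genes summed to 66.2 to 68.2, 83.9 to 185 and 208 to 289 FPKM in the same order. The 8 proliferation genes were at 873 to 896 FPKM in the controls and 256 to 417 in the ΔNp73-labelled group. In the ΔNp63-labelled libraries they were at 264, 705 and 259, so replicate 2 lay nearer the controls. That replicate also held 981 FPKM of Gzma, a granzyme of killer cells, against 24.4 to 53.4 in the other libraries. No marker was at 0 in all libraries, and Klrb1c, Zbtb46 and Ly6g of the lists were not analysed here. With all libraries, limma called 0 of the T cell core, proliferation and macrophage genes in either comparison with control. It called 1 of the 6 fibroblast genes, higher in the ΔNp73-labelled group (adjusted p = 0.0475), where 0.0542% of all genes passed. Without ΔNp63 replicate 2, it called 0 and 3 of the 7 T cell core genes lower in ΔNp63-labelled and ΔNp73-labelled tumours. In the same order, 8 and 8 of the 8 proliferation genes were called lower and 9 and 10 of the 10 macrophage genes higher. Of the 6 fibroblast genes, 3 and 6 were called higher. Of all genes, 10.8% and 16.1% were then called lower and 11.7% and 16.8% higher. In whole tumour tissue, fewer T lineage cells and less RNA per cell cannot be told apart, and the part of these lists in the results below was not tested.

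**Figure D1:**
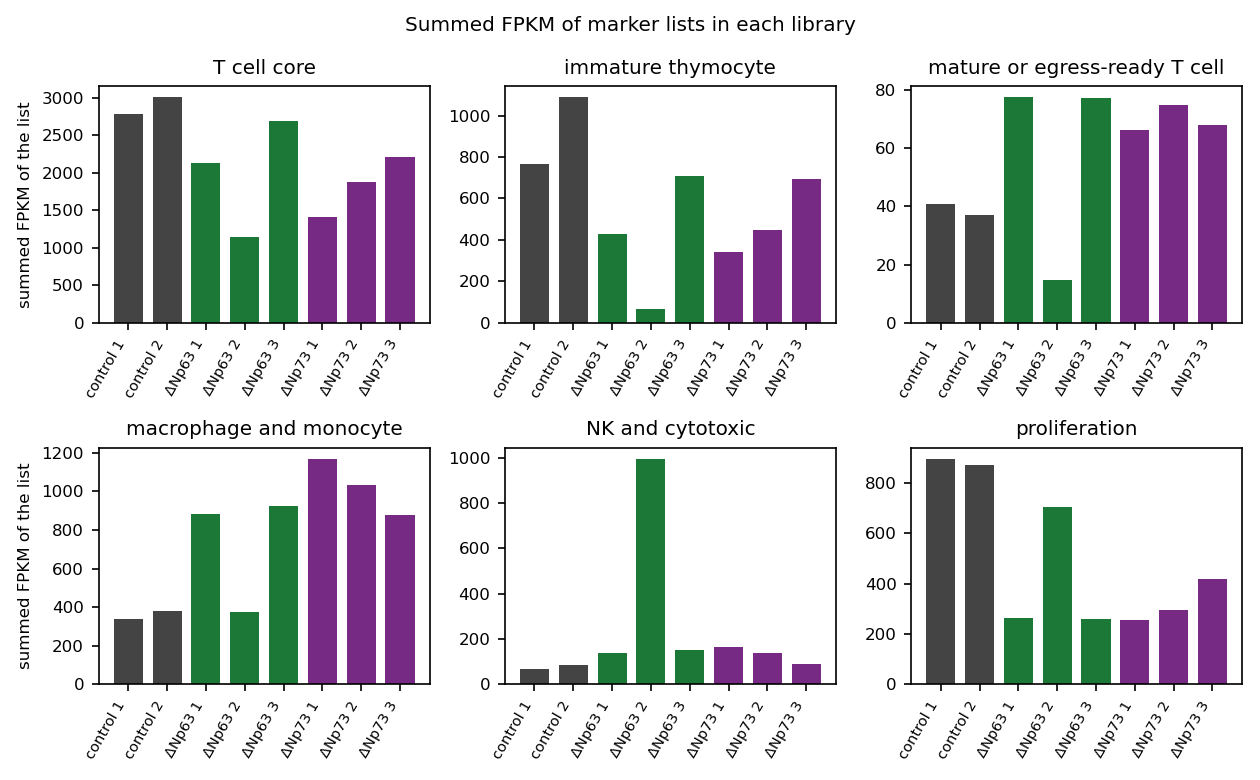
Bars give the summed FPKM of 6 marker lists in each of the 8 libraries, on linear axes that start at 0 (grey: control, green: ΔNp63-labelled, purple: ΔNp73-labelled). The T cell core sum is highest in the 2 controls, the macrophage sum is highest in the ΔNp73-labelled libraries and in ΔNp63 replicates 1 and 3, and the killer cell sum of 997 in ΔNp63 replicate 2 is far above the others.

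In the ΔNp63-labelled tumours, the kinase Lck, the adaptor Themis, the transcription factor Nfatc3 and the surface genes Thy1 and Cd96 lay below both controls in all 3 libraries, and the mean of Cd96 was 6.54-fold below that of the controls. S1pr1, Il2rb, Lag3, Il2ra, Cd69 and Icos, grouped here only after their values were seen, lay above control in replicates 1 and 3 and below it in replicate 2. The differences were tested as log2 fold changes (log2FC) of FPKM + 1 with limma, Benjamini-Hochberg adjusted over all genes tested, with a threshold of 0.05. With all libraries, 0 of the 44 members passed, where 0.0929% of the 12921 genes tested did. At an unadjusted p under 0.05 there were 5 members, all lower, against 13% of all genes, 7.03% lower. Without replicate 2, 13 of 44 passed, 10 higher and 3 lower. Of the 12782 genes then tested, 22.5% passed, 11.7% higher and 10.8% lower. The share of members called higher was thus above the background and the share called lower was close to it, and neither was tested against it. The members' median log2FC was -0.29 with all libraries, beside -0.02 for all genes, and 0.01 without replicate 2, beside -0.03. Groups did not overlap for 1 member higher and 16 lower with all libraries, beside 12.6% and 17.7% of all genes. Without replicate 2 these counts were 16 and 18, beside 31.9% and 37.1%.

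In the ΔNp73-labelled tumours, Lck, Thy1, Zap70, Lat, Trat1, Skap1 and Dntt lay below control, while Cd44, an adhesion receptor of activated T cells and of many other cells, stood about 3.26-fold above it. The egress receptor S1pr1 and the cytokine receptor chains Il7r and Il2rb also lay above control in all 3 libraries. With all libraries, 0 of 44 members passed the threshold, where 0.0542% of all genes did. At an unadjusted p under 0.05 there were 11 members, 1 higher and 10 lower, against 21.3% of all genes, 11.4% higher and 9.83% lower. The fit pools the spread of all groups, so ΔNp63 replicate 2 enters this comparison too. Without it, 18 of 44 members passed, 6 higher and 12 lower, beside 33% of all genes, 16.8% higher and 16.1% lower. The share of members called lower was thus above the background and the share called higher was close to it, and neither was tested against it. Fitted on the 2 controls and 3 ΔNp73-labelled libraries alone, 16 members and 3856 of all genes passed. With limma's array weights, which down-weight libraries that vary more, 21 members and 6569 genes passed here and 20 members and 4480 genes in the ΔNp63-labelled comparison. The median log2FC was -0.17 for the members and -0.07 for all genes. Groups did not overlap for 10 members higher and 18 lower, beside 27.7% and 35.7% of all genes. Both comparisons use the same 2 control libraries, so calls shared by them are not independent. No matching count over all genes is given for the members called in both, in 1 or in neither. Without replicate 2, the members called in both were S1pr1, Cd69, Lag3, Il2rb, Cd44 and Il7r, all 6 higher, and Thy1 and Nfatc3, both lower. A further 5 passed in the ΔNp63-labelled comparison alone, 10 in the ΔNp73-labelled comparison alone and 21 in neither. Whether such effects differ was tested by comparing the 2 deletion-labelled groups directly, further below.

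**Figure D2:**
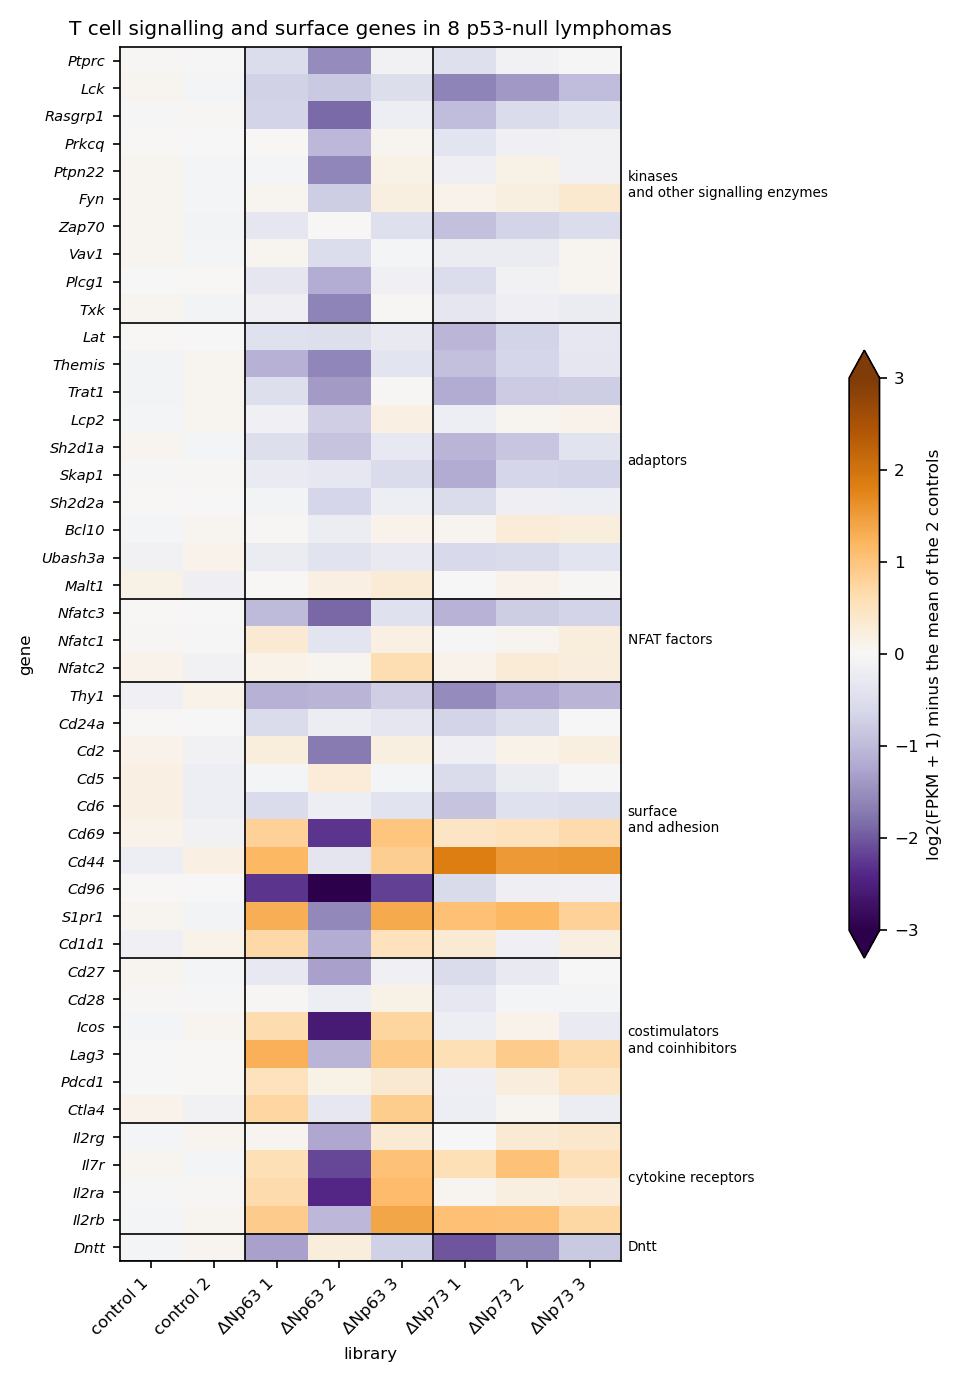
Each row is 1 of the 44 genes, grouped by role, and each column 1 of the 8 libraries; colour gives log2(FPKM + 1) minus the mean of the 2 controls (purple: lower, orange: higher), with the scale ending at 3 in either direction. The column of ΔNp63 replicate 2 is the darkest on the lower side, as it holds the lowest of the 8 values for 29 of the 44 genes, and the row of Cd96 is low in the ΔNp63-labelled columns.

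ΔNp63 replicate 2 held the lowest of the 8 values for 29 members (65.9%), whereas it held the lowest for 32.8% of all genes tested. For 14 members the lowest other library was more than 2 times higher, with no matching count over all genes given. The median member lay 0.95 log2 units below the control mean in this library (-0.95), against -0.33 to 0.07 in the 7 others. The median of all genes tested in this library was -0.04. ΔNp73 replicate 1 held the lowest value for 13 members (29.5%), beside 19.0% of all genes tested. The Cd5 and Dntt values of ΔNp63 replicate 2, by contrast, were the highest of the 8.

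Of the 10 kinases and other signalling enzymes, Lck, Zap70 and Rasgrp1 fell in the ΔNp73-labelled group without ΔNp63 replicate 2 and 0 passed in the ΔNp63-labelled group. In that fit 10.8% of all genes were called lower in the ΔNp63-labelled and 16.1% in the ΔNp73-labelled comparison, and whether the counts within a role differ between the groups was not tested, here or for the roles that follow. Lck, the Src-family kinase that starts receptor signalling, was at 252 and 229.9 FPKM in the 2 control libraries, 148, 137 and 168 in the ΔNp63-labelled libraries and 78.3, 90.3 and 123 in the ΔNp73-labelled libraries. The values and fold changes given here are of the entry kept by the rule, of 3 listed for Lck. In that entry all controls exceeded all ΔNp63-labelled libraries, and these exceeded all ΔNp73-labelled libraries, so the 3 groups formed 3 separate steps. The most abundant of the other entries, described below, overlapped between the groups. The ΔNp73-labelled mean was 2.48-fold below control (log2FC -1.33, SE 0.21, adjusted p = 0.0676), and without ΔNp63 replicate 2 the same difference passed (log2FC -1.33, SE 0.19, adjusted p = 0.00314). Over the alternatives tried its adjusted p ran from 0.000108 to 0.555. The ΔNp63-labelled mean was 1.59-fold below control and did not pass in either fit (log2FC -0.67, SE 0.21, adjusted p = 0.286; 0.0780 without replicate 2). Zap70, the kinase that docks on phosphorylated CD3 chains, was at 35.5 and 31.2 FPKM (controls), 26.1, 33.3 and 23.9 (ΔNp63-labelled) and 17.0, 20.5 and 22.7 (ΔNp73-labelled). The ΔNp73-labelled libraries were all below the 5 others. Against control the difference had a log2FC of -0.71 (SE 0.19, adjusted p = 0.119; 0.00913 without ΔNp63 replicate 2). Rasgrp1, which loads Ras with GTP after diacylglycerol binds it, was at 118 and 124 FPKM (controls), 76.1, 32.4 and 106 (ΔNp63-labelled) and 61.5, 82.1 and 90.1 (ΔNp73-labelled). Both deletion-labelled groups lay wholly below the controls, with replicate 2 of the ΔNp63-labelled group lowest. Without that replicate Rasgrp1 fell in the ΔNp73-labelled group (log2FC -0.65, SE 0.20, adjusted p = 0.0446), and in the ΔNp63-labelled group it was 0.42 log2 units lower without passing (-0.42, adjusted p = 0.204).

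The other 7 enzymes passed in no comparison with control, with or without replicate 2. Fyn, the second Src-family kinase of T cells, had group means of 26.3, 24.5 and 31.0 FPKM in control, ΔNp63-labelled and ΔNp73-labelled tumours, so its order was the reverse of that of Lck between control and the ΔNp73-labelled group. The Tec-family kinase Txk, the NF-kB-activating kinase Prkcq, Vav1, Plcg1 and the phosphatase Ptpn22, which dampens Lck and Zap70, lay between 18.8 and 36.4 FPKM in control. In ΔNp63 replicate 2 they were at 5.67 (Txk), 17.6 (Prkcq), 12.7 (Vav1), 8.26 (Plcg1) and 9.87 FPKM (Ptpn22), each the lowest of the 8 libraries. Without that library their log2FC against control lay between -0.23 and 0.05 in the ΔNp63-labelled group, and with it between -0.58 and -0.18. In the ΔNp73-labelled group they lay between -0.24 and -0.04.

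Lck was listed with 3 transcript entries from 2 starts, and those from the inner start had the lower values against control. Mouse Lck is known to be transcribed from a proximal promoter, used most in immature thymocytes, and from a distal promoter used at later stages and in mature T cells. By the reference annotation, NM_001162433 starts at the distal site and NM_010693 and NM_001162432 start 15250 and 15269 bases downstream of it. The distal entry was at 113 and 121 FPKM (controls), 86.3, 145 and 101 (ΔNp63-labelled) and 75.7, 112 and 129.8 (ΔNp73-labelled). These groups overlapped throughout, and ΔNp63 replicate 2 held the highest value (log2FC -0.11, SE 0.29, adjusted p = 0.910 for ΔNp63-labelled and log2FC -0.18, SE 0.29, adjusted p = 0.748 for ΔNp73-labelled against control, with each entry tested on its own). The shorter proximal entry was at 25.1 and 19.9 FPKM (controls), 10.5, 22.4 and 10.1 (ΔNp63-labelled) and 7.91, 10.3 and 9.89 (ΔNp73-labelled). Its ΔNp73-labelled libraries were all below both controls (log2FC -1.18, SE 0.33, adjusted p = 0.134), and without ΔNp63 replicate 2 it passed in both comparisons (adjusted p = 0.00736 and 0.00269 for ΔNp63-labelled and ΔNp73-labelled). The distal entry made up 29.0% to 32.7% of the summed Lck FPKM in the controls, 35.2% to 47.6% in the ΔNp63-labelled and 46.8% to 52.6% in the ΔNp73-labelled libraries. The share did not overlap between the controls and either other group. Reads in the exons that the entries share were divided among them by the authors' software, so the split is an estimate, and it was not tested as a share. The summed level of the immature thymocyte genes, given above, was lower in the same libraries, and its part was not tested.

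The sequences around both starts are shown because the entries they head behaved differently. They are from RefSeq, build GRCm38.p6, each running 5′ to 3′ on the minus strand from 250 bases before to 50 after the start (for the proximal window, that of the shorter entry), with capitals for a match to the core of the RUNX motif, TGTGGT, on either strand. RUNX factors are known regulators of T cell genes. The distal window lies at chr4:129573592-129573891 and holds 1 match, and the proximal window lies at chr4:129558323-129558622 and holds 0 of the 6 motifs searched.
Lck distal: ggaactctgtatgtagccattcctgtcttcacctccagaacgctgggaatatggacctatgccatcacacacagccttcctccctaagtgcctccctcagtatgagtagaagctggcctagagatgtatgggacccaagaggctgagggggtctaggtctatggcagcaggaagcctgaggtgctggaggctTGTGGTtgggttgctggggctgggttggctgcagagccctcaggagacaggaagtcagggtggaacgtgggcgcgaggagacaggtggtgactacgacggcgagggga
Lck proximal: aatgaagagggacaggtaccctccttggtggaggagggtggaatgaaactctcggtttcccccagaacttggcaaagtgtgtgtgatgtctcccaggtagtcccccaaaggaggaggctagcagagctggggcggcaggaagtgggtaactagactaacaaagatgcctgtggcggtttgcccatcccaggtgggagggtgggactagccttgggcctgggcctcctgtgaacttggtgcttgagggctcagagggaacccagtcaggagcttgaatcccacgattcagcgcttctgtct

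**Figure D3:**
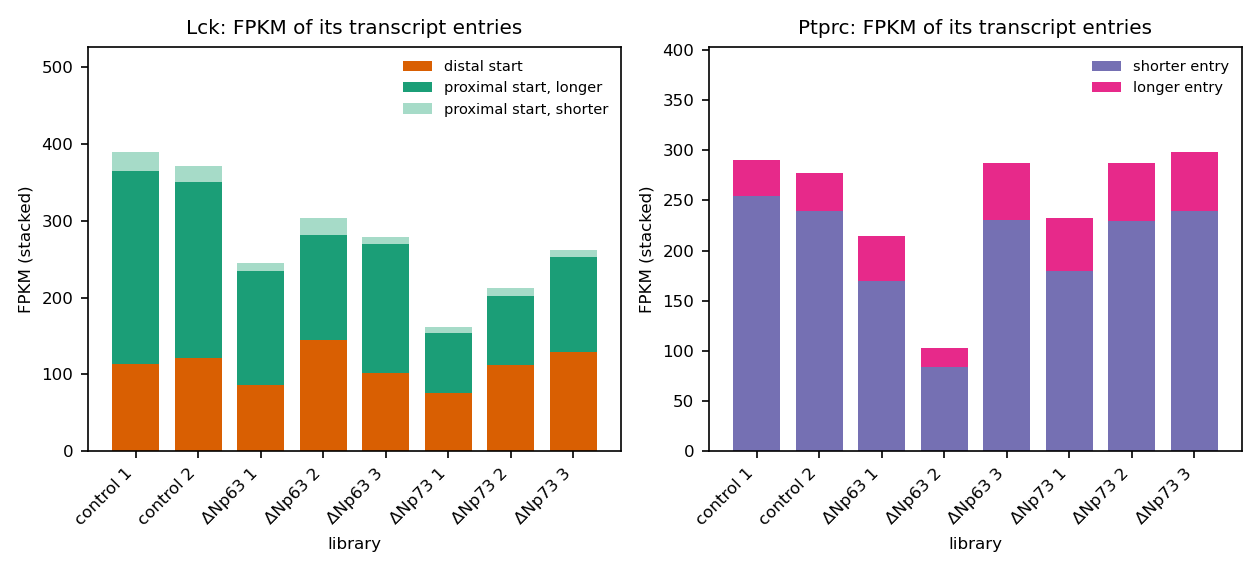
Stacked bars give the FPKM of each transcript entry of Lck (left) and Ptprc (right) in the 8 libraries, on linear axes that start at 0. The distal Lck segment keeps about the same height across groups, at means of 117, 111 and 106 FPKM, while the longer proximal segment shrinks from 241 to 151 and 97.1 FPKM; the longer Ptprc entry takes a larger share in the deletion-labelled libraries.

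Ptprc, the receptor phosphatase CD45 that keeps Lck ready to act and is carried by all white blood cells, was split differently between its 2 entries in the 3 groups. The entry kept by the rule, NM_011210 (4702 bases), was at 254 and 239 FPKM (controls), 170.1, 83.8 and 231 (ΔNp63-labelled) and 179.8, 229.9 and 239 (ΔNp73-labelled). The highest ΔNp73-labelled library equalled the lower control and the ΔNp63-labelled libraries lay below both controls (log2FC -0.72, SE 0.39, adjusted p = 0.470 and log2FC -0.20, SE 0.39, adjusted p = 0.792 for ΔNp63-labelled and ΔNp73-labelled tumours). The longer entry, NM_001111316 (5074 bases), was at 36.5 and 38.6 FPKM (controls), 43.9, 18.9 and 56.5 (ΔNp63-labelled) and 52.6, 57.1 and 59.5 (ΔNp73-labelled). All ΔNp73-labelled libraries exceeded both controls, and the difference passed without ΔNp63 replicate 2 (log2FC 0.57, SE 0.13, adjusted p = 0.0178) but not with it (adjusted p = 0.443). The longer entry made up 12.6% to 13.9% of the sum in the controls, 18.4% to 20.5% in the ΔNp63-labelled and 19.9% to 22.6% in the ΔNp73-labelled libraries, replicate 2 included. CD45 is known to be spliced differently between leukocyte types, with the longest form on B cells. The 6 B cell markers summed to 35.8 to 37.1 FPKM in the controls, 73.4, 9.48 and 47.4 in the ΔNp63-labelled and 48.2 to 52.6 in the ΔNp73-labelled libraries. The part of B cells or other leukocytes in these shares was not tested.

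Among the adaptors, 5 of 10 fell in the ΔNp73-labelled group and 0 of 10 in the ΔNp63-labelled group once replicate 2 was left out, where 16.1% and 10.8% of all genes were called lower. With all libraries none of the 10 passed in either. Skap1, an adaptor that links the receptor to integrin adhesion, was at 28.8 and 30.5 FPKM in the 2 control libraries, 24.7, 23.6 and 20.0 in the ΔNp63-labelled libraries and 12.5, 18.6 and 18.2 in the ΔNp73-labelled libraries. The ΔNp73-labelled libraries were all below the 5 others (log2FC -0.83, SE 0.20, adjusted p = 0.101; 0.0148 without replicate 2). Trat1, a transmembrane adaptor that associates with the receptor complex, was at 109 and 122 FPKM (controls), 82.8, 44.1 and 119 (ΔNp63-labelled) and 49.8, 66.4 and 68.0 (ΔNp73-labelled). Here too the ΔNp73-labelled libraries lay below both controls, while ΔNp63 replicate 3 reached control level and replicate 2 was lowest (log2FC -0.91, SE 0.38, adjusted p = 0.226; 0.0136 without replicate 2). Ubash3a, a suppressor of receptor signalling with a phosphatase-like domain, was at 16.3 and 18.7 FPKM (controls), 14.8, 13.0 and 14.3 (ΔNp63-labelled) and 11.2, 11.6 and 13.1 (ΔNp73-labelled). Controls lay above all other libraries, and the ΔNp73-labelled group differed by a log2FC of -0.51 (SE 0.14, adjusted p = 0.122; 0.0126 without replicate 2).

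Lat, the membrane scaffold that Zap70 phosphorylates, was the most abundant adaptor in control. Its level was 304 and 299.5 FPKM in the 2 control libraries, 223, 216 and 249.7 in the ΔNp63-labelled libraries and 147, 190.2 and 241 in the ΔNp73-labelled libraries. Both deletion-labelled groups lay wholly below the controls, and the ΔNp73-labelled difference passed only without replicate 2 (log2FC -0.67, SE 0.22 with all libraries, adjusted p = 0.152; 0.0387 without). Sh2d1a, the SAP adaptor of SLAM-family receptors that natural killer T cells need in order to develop, was at 64.6 and 59.9 FPKM (controls), 44.3, 33.2 and 50.5 (ΔNp63-labelled) and 29.4, 34.1 and 46.3 (ΔNp73-labelled). It too was lower in all 6 libraries than in either control (log2FC -0.78, SE 0.24, adjusted p = 0.143 for the ΔNp73-labelled group; 0.0194 without replicate 2). Themis, which sets the receptor's response during positive selection, was at 194 and 219 FPKM (controls), 95.5, 68.1 and 157 (ΔNp63-labelled) and 108, 131 and 164 (ΔNp73-labelled). All 6 libraries were below the controls by a wide but variable margin, and neither difference passed in either fit (log2FC -1.03, SE 0.34, adjusted p = 0.302 and log2FC -0.64, SE 0.34, adjusted p = 0.322; without replicate 2, 0.0882 and 0.0854).

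Lcp2, the cytoplasmic partner of Lat, differed little between groups, with means of 65.3, 57.3 and 65.6 FPKM in control, ΔNp63-labelled and ΔNp73-labelled tumours. Bcl10 and Malt1 together relay the signal to NF-kB. Bcl10 was at 13.1 and 14.3 FPKM (controls), 13.9, 11.7 and 14.7 (ΔNp63-labelled) and 14.5, 16.6 and 16.4 (ΔNp73-labelled), and Malt1 had means of 10.6, 11.9 and 10.9 FPKM in the same order, with 12.0 in ΔNp63 replicate 2. Neither was far below its group in that library. Sh2d2a, an adaptor that binds Lck, had means of 25.2, 20.7 and 20.6 FPKM. None of these 4 passed in a comparison with control in either fit.

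Of the NFAT factors, Nfatc3 alone was abundant and alone was lower. This calcium-activated transcription factor is known to be prominent in immature thymocytes. Nfatc3 was at 141 and 139 FPKM in the 2 control libraries, 69.9, 37.2 and 103 in the ΔNp63-labelled libraries and 65.5, 82.0 and 87.4 in the ΔNp73-labelled libraries. The 2 controls were nearly equal and above all 6 other libraries. Against control the ΔNp63-labelled group had a log2FC of -1.10 (SE 0.38, adjusted p = 0.312) and the ΔNp73-labelled group -0.84 (SE 0.38, adjusted p = 0.255). Without replicate 2 Nfatc3 fell in both, by 0.71 (-0.71, adjusted p = 0.0492, just under the threshold) and by 0.84 log2 units (-0.84, adjusted p = 0.0162). With each transcript entry tested on its own and without replicate 2, the first of these was 0.0564 and no longer passed. Nfatc2 was near the lower limit of the test, at 2.10 and 1.71 FPKM (controls), 2.16, 2.08 and 3.48 (ΔNp63-labelled) and 2.13, 2.53 and 2.39 (ΔNp73-labelled). Nfatc1 had means of 10.9, 11.4 and 11.7 FPKM and 6 entries. Both overlapped or lay slightly above control, and neither passed in a comparison in either fit.

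Of the 10 surface and adhesion genes, 4 rose and 2 fell in the ΔNp63-labelled group and 3 rose and 2 fell in the ΔNp73-labelled group without ΔNp63 replicate 2, while 0 passed with all libraries. Of all genes, 11.7% rose and 10.8% fell in the first and 16.8% rose and 16.1% fell in the second of these comparisons. Thy1, a glycoprotein on nearly all thymocytes and the most abundant of the 44 genes, was at 1222 and 1479 FPKM in the 2 control libraries, 620.5, 636 and 799.6 in the ΔNp63-labelled libraries and 462, 575 and 642 in the ΔNp73-labelled libraries. Both deletion-labelled groups were wholly below the controls, and here ΔNp63 replicate 2 lay within its group. Its mean was 1.97-fold below control for ΔNp63-labelled tumours (log2FC -0.98, SE 0.21, adjusted p = 0.191) and 2.41-fold below it for ΔNp73-labelled tumours (log2FC -1.28, SE 0.21, adjusted p = 0.0731). Without replicate 2 both passed, at adjusted p = 0.0217 and 0.00373, and over the alternatives tried the adjusted p ran from 0.00330 to 0.957 and from 0.000235 to 0.555.

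Cd96 separated the ΔNp63-labelled tumours from all others. It encodes a surface receptor of T and natural killer cells that binds the adhesion molecule CD155. Cd96 was at 47.8 and 47.4 FPKM in the 2 control libraries, 8.90, 3.35 and 9.60 in the ΔNp63-labelled libraries and 31.5, 43.0 and 43.6 in the ΔNp73-labelled libraries. The 3 ΔNp63-labelled libraries, replicates 1 and 3 included, were all below the 5 others, with no value between 9.60 and 31.5 FPKM. The mean was 6.54-fold below control (log2FC -2.66, SE 0.38, adjusted p = 0.107). Without replicate 2 Cd96 fell by 2.25 log2 units (-2.25, SE 0.17, adjusted p = 0.00134), and over the alternatives tried the adjusted p ran from 0.000244 to 0.942 with the log2FC between -2.89 and -2.25. Relative to the CD3 genes, with all libraries in the fit, the difference also passed. In the ΔNp73-labelled group Cd96 differed from control by a log2FC of -0.28 (SE 0.38, adjusted p = 0.687).

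Genes beside Cd96 on chromosome 16 were examined after its values were seen. The 3 nearest tested genes on each side did not all lie on the same side of control in the ΔNp63-labelled group. Plcxd2, a phospholipase-related gene, was at 6.67 and 7.19 FPKM (controls), 2.62, 2.29 and 2.64 (ΔNp63-labelled) and 3.62, 4.85 and 6.04 (ΔNp73-labelled). Its 3 ΔNp63-labelled libraries were the lowest of the 8, replicate 2 among them (log2FC -1.17, adjusted p = 0.137; -1.13, 0.00832 without replicate 2). Morc1, on the other side, was at 1.22 and 1.16 FPKM (controls), 0.130, 0.288 and 0.375 (ΔNp63-labelled) and 0.254, 0.198 and 0.318 (ΔNp73-labelled). Only the controls reached an FPKM of 1, which alone carried Morc1 past the filter on low values, so no test of it is given. Phldb2, next after Plcxd2, had a mean above control (log2FC 0.33, adjusted p = 0.551; 0.50, 0.0631 without replicate 2), without passing. Abhd10 beyond it had a log2FC of -0.19 (adjusted p = 0.717; 0.314 without replicate 2). Trat1, itself one of the 44 genes, is the next tested gene after Morc1, and its values are given with the adaptors. Retnla, the third on that side, had a log2FC of -1.05 (adjusted p = 0.531) and was highest of the 8 in replicate 2; without that library it fell (-1.81, adjusted p = 0.00279). Trp63, the targeted gene, lies on the same chromosome, and whether its position bears on Cd96 was not tested.

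The window around the Cd96 start is shown because this gene had the largest difference of the 44 from control. It is RefSeq sequence of build GRCm38.p6, chr16:46120199-46120498 on the minus strand, running 5′ to 3′ over the same span as for Lck. It holds 2 matches to the RUNX core in capitals, TGTGGT and, on the opposite strand, ACCACA.
Cd96 start: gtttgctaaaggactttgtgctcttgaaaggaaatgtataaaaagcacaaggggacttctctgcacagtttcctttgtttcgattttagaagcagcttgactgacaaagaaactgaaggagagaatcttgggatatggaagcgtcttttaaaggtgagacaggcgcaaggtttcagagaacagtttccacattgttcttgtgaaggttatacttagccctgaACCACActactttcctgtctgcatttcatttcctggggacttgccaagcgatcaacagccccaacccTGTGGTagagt

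Cd44, the hyaluronan receptor carried by early progenitors, by activated T cells and by many other cells, was at 12.9 and 16.6 FPKM in the 2 control libraries, 34.3, 11.1 and 27.3 in the ΔNp63-labelled libraries and 55.1, 44.2 and 45.2 in the ΔNp73-labelled libraries. All ΔNp73-labelled libraries were above the 5 others, and ΔNp63 replicate 2 was below both controls while replicates 1 and 3 were above them. In the ΔNp73-labelled group the log2FC was 1.64 (SE 0.42, adjusted p = 0.110), and without replicate 2 Cd44 rose in both groups (adjusted p = 0.00922 and 0.00115 for ΔNp63-labelled and ΔNp73-labelled). Over the alternatives tried the ΔNp73-labelled adjusted p ran from 0.000128 to 0.561. These values are of the entry kept by the rule, of 5 listed for Cd44. The other entries were minor, with control means of 0.614 to 1.45 FPKM. With each entry tested on its own by limma and without replicate 2, none of them passed in the ΔNp63-labelled group (adjusted p from 0.0509 to 0.754). In the ΔNp73-labelled group their adjusted p ran from 0.00360 to 0.0925. Macrophages and fibroblasts express Cd44 as well, and both marker sums were higher in the same libraries, as given above; their part was not tested. S1pr1, the sphingosine-1-phosphate receptor that lets T cells leave the thymus, was at 10.4 and 9.31 FPKM (controls), 25.7, 2.67 and 26.8 (ΔNp63-labelled) and 21.7, 23.5 and 17.8 (ΔNp73-labelled). All libraries labelled for a deletion except ΔNp63 replicate 2 were above the controls. Without that replicate S1pr1 rose in both groups (log2FC 1.33, SE 0.14, adjusted p = 0.00216 and log2FC 1.01, SE 0.13, adjusted p = 0.00230), whereas with it neither passed (0.888 and 0.489).

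Cd69, an early activation marker that also holds S1pr1 off the surface, was at 31.4 and 27.5 FPKM in the 2 control libraries, 52.3, 5.23 and 59.9 in the ΔNp63-labelled libraries and 40.5, 43.0 and 46.9 in the ΔNp73-labelled libraries. It followed S1pr1: above control in 5 of the 6 libraries, and at its lowest in ΔNp63 replicate 2. Without that replicate it rose by 0.91 (SE 0.13, adjusted p = 0.00432) and 0.55 log2 units (SE 0.11, adjusted p = 0.0126) in the ΔNp63-labelled and ΔNp73-labelled groups. The 3 genes of mature or egress-ready T cells outside the 44 (Klf2, Ccr7 and Itgb7) summed to 37.2 to 40.8 FPKM in the controls, 77.6, 14.8 and 77.5 in the ΔNp63-labelled and 66.3 to 74.9 in the ΔNp73-labelled libraries, so this sum too was above control in 5 of the 6 and lowest in replicate 2. Cd6, a receptor that binds the adhesion molecule CD166, fell in the ΔNp73-labelled group without replicate 2 (log2FC -0.60, SE 0.17, adjusted p = 0.0333), from a mean of 60.2 to 39.4 FPKM. The second Cd6 entry, tested on its own, did not pass there (log2FC -0.36, adjusted p = 0.227). Cd1d1, the lipid-presenting molecule that selects natural killer T cells, rose in the ΔNp63-labelled group without replicate 2 (log2FC 0.61, SE 0.17, adjusted p = 0.0465). With each entry tested on its own that adjusted p was 0.0541, and its near-identical neighbour Cd1d2 makes the level of Cd1d1 uncertain. Cd2, Cd5 and Cd24a passed in no comparison. Cd2, the receptor for CD48, was at 184 to 245 FPKM in 7 libraries and lowest in ΔNp63 replicate 2. Cd5, which tunes receptor signals down, was highest in that same library (95.1 FPKM). Cd24a, a marker of immature thymocytes whose level is uncertain because near-identical copies exist in the genome, had means of 266, 208 and 208 FPKM.

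**Figure D4:**
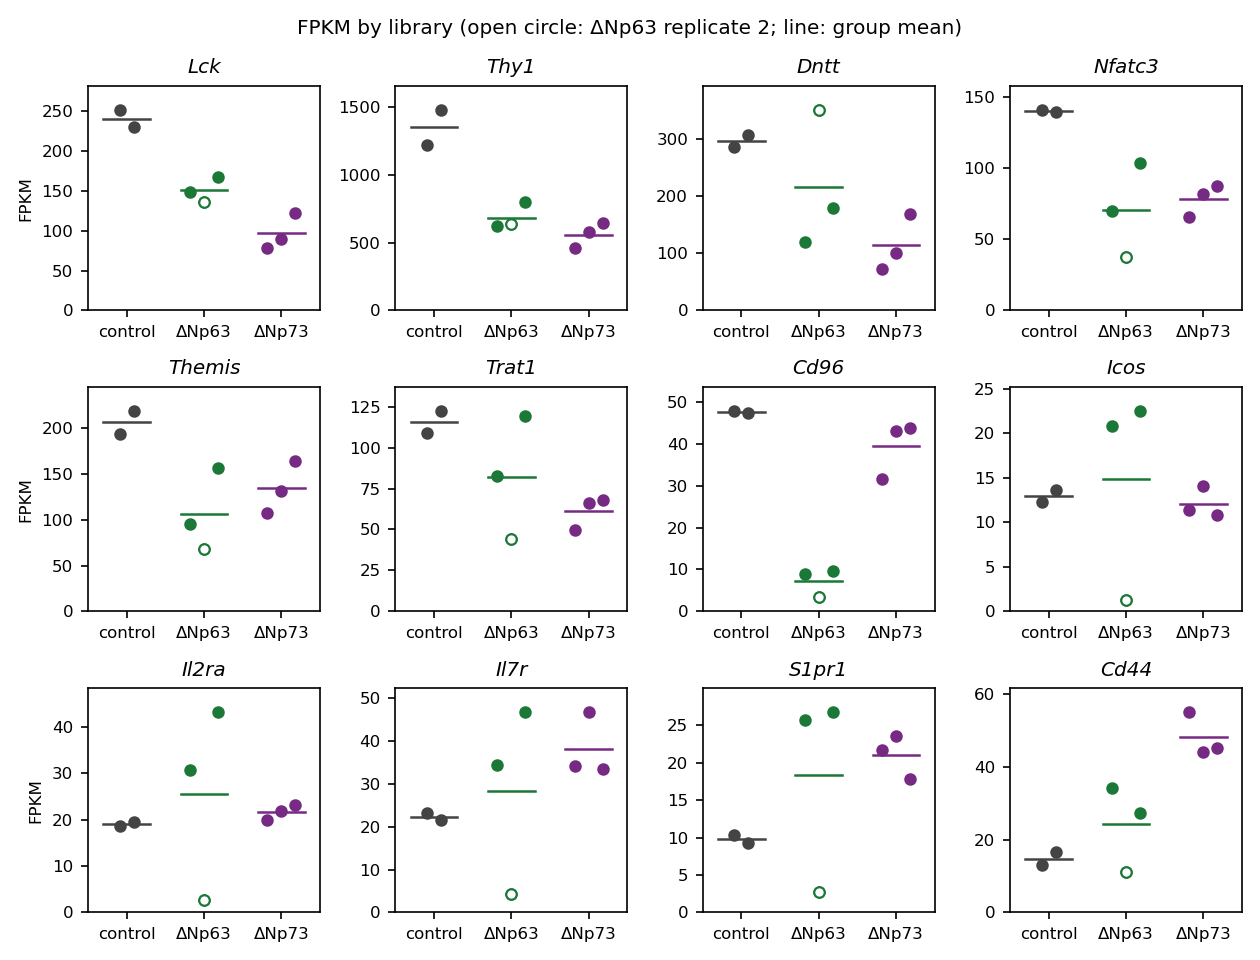
Points give the FPKM of 12 genes in each library and lines the group means (grey: control, green: ΔNp63-labelled, purple: ΔNp73-labelled; the open circle is ΔNp63 replicate 2); axes are linear and start at 0. The entry kept for Lck steps down from control to ΔNp63-labelled to ΔNp73-labelled tumours, and Cd96 is low in all 3 ΔNp63-labelled libraries. For Icos, Il2ra, Il7r and S1pr1 the open circle is the lowest value while the other 2 ΔNp63-labelled libraries exceed the controls.

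Of the 6 costimulators and coinhibitors, 3 rose in the ΔNp63-labelled group and 1 in the ΔNp73-labelled group without ΔNp63 replicate 2, and 0 fell. Of all genes, 11.7% and 16.8% were called higher there, so 1 of 6 was about the background share. Icos, an inducible receptor of the CD28 family, was at 12.3 and 13.6 FPKM in the 2 control libraries, 20.8, 1.32 and 22.5 in the ΔNp63-labelled libraries and 11.4, 14.0 and 10.8 in the ΔNp73-labelled libraries. Replicates 1 and 3 of the ΔNp63-labelled group were above all other libraries, and replicate 2 was far below them. Ctla4, which restrains CD28 signals and is abundant on regulatory T cells, showed the same layout at 3.16 and 2.65 FPKM (controls), 5.51, 2.14 and 6.16 (ΔNp63-labelled) and 2.47, 3.15 and 2.39 (ΔNp73-labelled). Without replicate 2 both rose in ΔNp63-labelled tumours (log2FC 0.70, SE 0.14, adjusted p = 0.0148 for Icos and log2FC 0.81, SE 0.15, adjusted p = 0.0105 for Ctla4), and in the ΔNp73-labelled group both stayed within 0.10 log2 units of control (-0.10 and -0.09). The 3 regulatory T cell markers (Foxp3, Ikzf2 and Tnfrsf18) summed to 29.7 and 24.5 FPKM (controls), 38.6, 31.7 and 35.6 (ΔNp63-labelled) and 27.1, 34.2 and 34.7 (ΔNp73-labelled). The sum of replicate 2 was above both controls, and the ΔNp73-labelled libraries overlapped the controls. Foxp3 and Tnfrsf18 were highest in ΔNp63 replicates 1 and 3, as Icos and Ctla4 were, while Ikzf2 was not (log2FC 0.05 without replicate 2), and the part of regulatory T cells was not tested. Lag3, a coinhibitor that binds MHC class II, was at 6.96 and 6.96 FPKM (controls), 18.4, 2.83 and 14.1 (ΔNp63-labelled) and 11.1, 13.9 and 11.6 (ΔNp73-labelled). Apart from replicate 2, every deletion-labelled library was above both controls, and without that replicate Lag3 rose in both groups (log2FC 1.11, SE 0.16, adjusted p = 0.00463 and log2FC 0.72, SE 0.14, adjusted p = 0.0101). Pdcd1, which encodes the coinhibitor PD-1, was at 7.84 and 7.97 FPKM (controls), 11.9, 8.91 and 10.2 (ΔNp63-labelled) and 7.03, 9.42 and 11.2 (ΔNp73-labelled). It was the 1 member whose ΔNp63-labelled libraries, replicate 2 included, were all above the controls, but the difference did not pass (log2FC 0.34, SE 0.21, adjusted p = 0.524; 0.152 without replicate 2). Cd28, the founding costimulator, was at 97.3 and 91.5 FPKM (controls), 97.0, 82.9 and 105 (ΔNp63-labelled) and 75.3, 91.1 and 90.2 (ΔNp73-labelled). Its ΔNp73-labelled libraries lay just below both controls and its ΔNp63-labelled libraries overlapped them, and neither difference passed in either fit. Cd27, a costimulator of the TNF receptor family, was at 144 and 134 FPKM (controls), 113, 56.2 and 127 (ΔNp63-labelled) and 95.2, 114 and 137 (ΔNp73-labelled), and neither difference from control passed in either fit (0.523 and 0.664 with all libraries).

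The cytokine receptor chains were the group with the largest positive median against control in the ΔNp73-labelled tumours, 0.48 log2 units over its 4 members. Without ΔNp63 replicate 2, 3 of them rose in the ΔNp63-labelled and 2 in the ΔNp73-labelled group, where 11.7% and 16.8% of all genes were called higher. Il7r, the chain that thymocytes need for survival and for expansion before and after receptor rearrangement, was at 23.1 and 21.4 FPKM in the 2 control libraries, 34.3, 4.27 and 46.6 in the ΔNp63-labelled libraries and 34.2, 46.7 and 33.5 in the ΔNp73-labelled libraries. Il2rb, the signalling chain for interleukins 2 and 15, was at 12.7 and 13.8 FPKM (controls), 25.7, 6.06 and 36.5 (ΔNp63-labelled) and 28.8, 28.5 and 22.3 (ΔNp73-labelled). In both, all deletion-labelled libraries except ΔNp63 replicate 2 were above the controls, and that replicate was lowest. Without it both rose in both groups, with adjusted p = 0.0301 and 0.0233 for Il7r and 0.00808 and 0.00835 for Il2rb in the ΔNp63-labelled and ΔNp73-labelled groups. With all libraries the 4 values ranged from 0.407 (Il2rb, ΔNp73-labelled) to 0.953 (Il7r, ΔNp63-labelled). Il2ra, the high-affinity chain CD25, was at 18.7 and 19.4 FPKM (controls), 30.6, 2.78 and 43.2 (ΔNp63-labelled) and 20.0, 21.9 and 23.2 (ΔNp73-labelled). It stood highest in replicates 1 and 3 of the ΔNp63-labelled group, where it rose without replicate 2 (log2FC 0.90, SE 0.17, adjusted p = 0.0113), and its ΔNp73-labelled libraries were only slightly above control (log2FC 0.18, adjusted p = 0.926). Il2rg, the common gamma chain, was the most abundant of the 4 at 238 and 255 FPKM (controls), 260.1, 105 and 309 (ΔNp63-labelled) and 245, 309 and 322 (ΔNp73-labelled). Its groups did not differ by the test in either fit, and ΔNp63 replicate 2 was again lowest.

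Dntt is shut off as thymocytes mature past receptor rearrangement. It was at 285 and 308 FPKM in the 2 control libraries, 120.2, 351 and 179 in the ΔNp63-labelled libraries and 72.1, 100.2 and 169 in the ΔNp73-labelled libraries. The ΔNp73-labelled libraries and ΔNp63 replicates 1 and 3 were below both controls, while ΔNp63 replicate 2 was the highest of the 8. The summed level of the immature thymocyte genes, by contrast, was lowest in that replicate, at 66.2 FPKM. In the ΔNp73-labelled group Dntt was 2.60-fold lower (log2FC -1.46, SE 0.49, adjusted p = 0.162), which passed without replicate 2 (log2FC -1.46, SE 0.34, adjusted p = 0.0183). In the ΔNp63-labelled group it did not pass in either fit (0.644 with all libraries and 0.0970 without replicate 2). A minor second entry, NM_009345, had means of 20.3 FPKM in control and 4.18 in the ΔNp73-labelled group, a difference that passed without replicate 2 (adjusted p = 0.00185) and not with it (0.114).

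**Figure D5:**
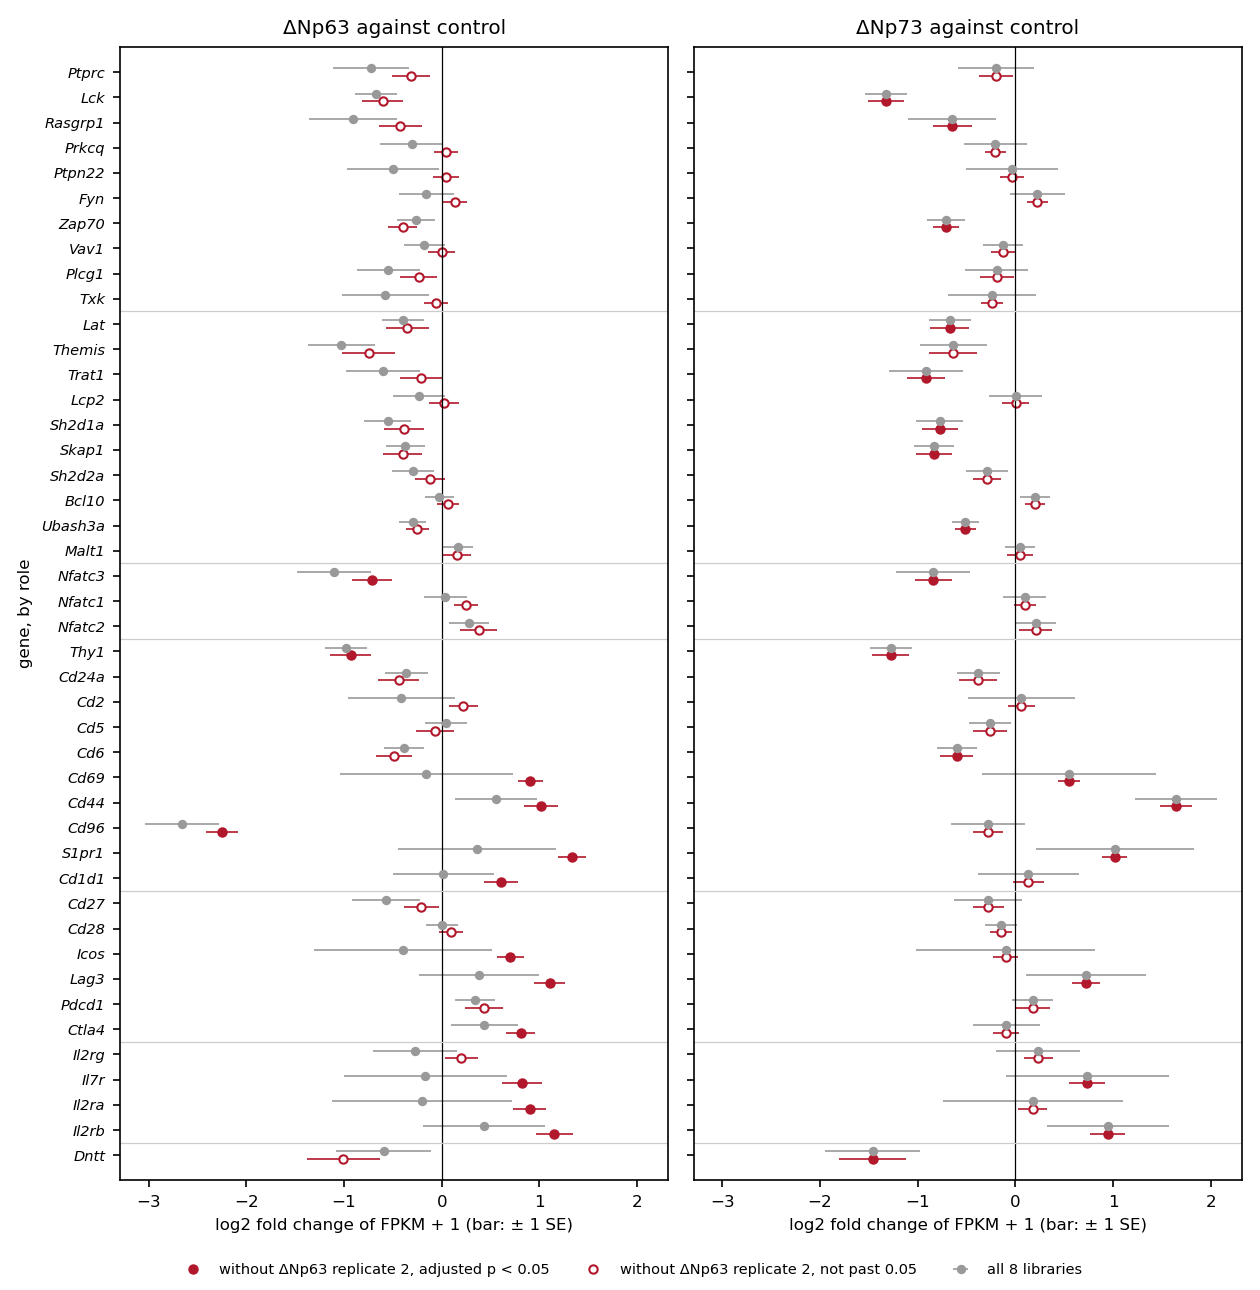
Points give the log2 fold change of FPKM + 1 against control for the 44 genes, ordered by role, in the ΔNp63-labelled (left) and ΔNp73-labelled (right) group, with bars of 1 standard error (grey: all 8 libraries; red: without ΔNp63 replicate 2, filled where the adjusted p is under 0.05). No grey value passes; 13 genes are filled on the left and 18 on the right, Cd96 stands apart at -2.25 on the left, and Cd44 is highest on the right at 1.64.

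The direct comparison of the ΔNp73-labelled with the ΔNp63-labelled group, both given the Cre virus, turned on Cd96. With all libraries Cd96 was 5.41-fold higher in the ΔNp73-labelled group (log2FC 2.38, SE 0.34, adjusted p = 0.178), and without replicate 2 it passed (log2FC 1.96, SE 0.15, adjusted p = 0.00559). Its adjusted p over the alternatives tried ran from 0.000384 to 0.774. With all libraries 0 of 44 members passed, where 0.0542% of all genes did, and without replicate 2 Cd96 was the 1 member to pass, where 0.149% did, 0.0626% higher. At an unadjusted p under 0.05 there were 5 members with all libraries and 13 without replicate 2, against 10.5% and 15.6% of all genes. The entry kept for Lck was lower in every ΔNp73-labelled than in any ΔNp63-labelled library (log2FC -0.65, SE 0.19, adjusted p = 0.432), and so were Zap70 (log2FC -0.44, adjusted p = 0.468) and Skap1 (-0.46, 0.468). The distal Lck entry overlapped between these groups (log2FC -0.07, adjusted p = 0.906 with each entry tested on its own). Cd44 was higher in every ΔNp73-labelled library (log2FC 1.09, SE 0.38, adjusted p = 0.453). Icos, Ctla4 and Il2ra were lower in the ΔNp73-labelled group once replicate 2 was left out, by -0.80, -0.90 and -0.72 log2 units, without passing (adjusted p = 0.0848, 0.0793 and 0.122). With replicate 2, Icos and Il2ra were higher in the ΔNp73-labelled group (0.30 and 0.38), so that 1 library set the direction for both. The members' median was 0.17 with all libraries and -0.19 without replicate 2, beside -0.02 and -0.01 for all genes, so the direction of the list as a whole also turned on it. Groups did not overlap for 2 members higher (Cd96 and Cd44) and 3 lower with all libraries, beside 10.3% and 8.58% of all genes, and for 2 and 14 without replicate 2, beside 16% and 15.2%. With array weights 3 members passed: Cd96, Lck (log2FC -0.73, adjusted p = 0.0401) and Ctla4 (-0.74, 0.03995). Over the alternatives tried the adjusted p ran from 0.0401 to 0.883 for Lck and from 0.03995 to 0.9998 for Ctla4, each past the threshold in that setting alone. The other calls made in only 1 comparison with control are not shown to differ between the groups.

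Genes largely limited to T and natural killer cells and genes that other cells also express lay on different sides in the ΔNp73-labelled group. Of the 24 members of the first kind, 20 were below control and 4 above, with a median log2FC of -0.29. Of the 20 members of the second kind, such as Cd44, Ptprc and Fyn, 7 were below and 13 above, with a median of 0.11. Of all genes tested, 56.7% were below control, with a median of -0.07. In the ΔNp63-labelled group the medians were -0.39 and -0.17 with all libraries, beside -0.02 for all genes. Without replicate 2 they were -0.21 and 0.15, beside -0.03. These are descriptions of the lists, with no test. The macrophage and fibroblast sums were higher and the T cell core sum lower in the same libraries, except that the macrophage sum of ΔNp63 replicate 2 lay between the controls. The part of these sums in this split was not tested.

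Centring on the CD3 genes shifts all genes of a library alike, so the members' medians and that of all genes moved together. After each library was centred on the mean of Cd3d, Cd3e and Cd3g, the median of all genes moved to 0.31 and 0.34 log2 units above control in ΔNp63-labelled and ΔNp73-labelled tumours, and the members' medians lay at 0.04 and 0.24. The members' medians lay below the all-gene median before centring, and a shift of this kind leaves that gap unchanged, so it is no second result. A single member passed in each comparison: Cd96, lower in the ΔNp63-labelled group and higher in the direct comparison, and Cd44, higher in the ΔNp73-labelled group. Over all genes this centring gave 471 higher and 5 lower calls in the ΔNp73-labelled group, where the quantile-normalised values gave 6 and 1, and 3 higher and 2 lower in the ΔNp63-labelled group, where they gave 4 and 8. Between the deletion-labelled groups it gave 5 higher and 2 lower, where they gave 4 and 3.

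A wider list of 75 genes of the same pathways, outside the 44, also held genes on both sides of control. It covered 25 genes of proximal receptor signalling, 8 of the NF-kB branch, 9 of calcium entry, 13 of JAK-STAT signalling, 16 other surface molecules and 4 genes induced by the receptor. With all libraries 0 of 75 passed in any comparison. An unadjusted p under 0.05 was reached by 12, 14 and 1 in the ΔNp63-labelled, ΔNp73-labelled and direct comparisons. Of all genes, 13%, 21.3% and 10.5% reached it in the same order. Without replicate 2, 17 rose and 5 fell in the ΔNp63-labelled group and 18 rose and 10 fell in the ΔNp73-labelled group, and 0 passed in the direct comparison, beside the same background as for the members. Ubash3b, the close relative of Ubash3a that limits Zap70, was at 2.35 and 2.13 FPKM (controls), 4.58, 3.87 and 4.69 (ΔNp63-labelled) and 5.05, 4.83 and 4.67 (ΔNp73-labelled). All 6 libraries exceeded the controls, replicate 2 included, which was the opposite of Ubash3a (log2FC 0.73, adjusted p = 0.164 and 0.85, 0.0731; 0.00370 and 0.00160 without replicate 2). Itpr2, a calcium channel of the endoplasmic reticulum, was at 19.7 and 18.9 FPKM (controls), 11.6, 12.9 and 13.4 (ΔNp63-labelled) and 11.7, 12.3 and 12.8 (ΔNp73-labelled). It was lower in all 6, again with replicate 2 close to its group (adjusted p = 0.198 and 0.0866; 0.0107 and 0.00477 without replicate 2). The ubiquitin ligase Cbl, which marks signalling proteins for removal, was at 44.1 and 45.1 FPKM (controls), 22.7, 12.3 and 28.0 (ΔNp63-labelled) and 25.3, 28.1 and 41.2 (ΔNp73-labelled), below control throughout and lowest in replicate 2 (log2FC -1.12, adjusted p = 0.278 in the ΔNp63-labelled group; 0.0437 without it).

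Sit1, an inhibitory transmembrane adaptor, was at 44.8 and 48.8 FPKM (controls), 41.7, 29.5 and 42.8 (ΔNp63-labelled) and 22.7, 26.0 and 30.1 (ΔNp73-labelled), and its ΔNp73-labelled libraries lay at the low end together with ΔNp63 replicate 2 (log2FC -0.82, adjusted p = 0.107; 0.00443 without replicate 2). Wipf1, which stabilises the actin regulator WASP, was at 32.9 and 33.2 FPKM (controls), 31.5, 19.7 and 34.2 (ΔNp63-labelled) and 35.0, 39.0 and 41.3 (ΔNp73-labelled), with the ΔNp73-labelled libraries above the 5 others (log2FC 0.45, adjusted p = 0.475 against the ΔNp63-labelled group). Ifngr1, a chain of the interferon gamma receptor, was at 119 and 127 FPKM (controls), 56.1, 18.8 and 68.0 (ΔNp63-labelled) and 81.5, 78.0 and 76.6 (ΔNp73-labelled), below control in all 6 libraries, and it fell in both groups without replicate 2 (log2FC -0.98, adjusted p = 0.00282 and -0.64, 0.00615). The 4 genes that receptor signals induce within minutes to hours (Nr4a1, Egr1, Egr2 and Egr3) passed in no comparison in either fit. Their median log2FC was -0.18 and 0.23 in the ΔNp63-labelled and ΔNp73-labelled groups with all libraries, and 0.32 and 0.23 without replicate 2, so that library set the sign of the first. With all libraries 0 of the 4 reached an unadjusted p under 0.05, beside 13% and 21.3% of all genes in the ΔNp63-labelled and ΔNp73-labelled comparisons. Without replicate 2 it was reached by 1, in the ΔNp63-labelled group, beside 4739 of the 12782 genes then tested.

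The start-site windows of 28 members (37 windows) were matched in RefSeq and searched on both strands for 6 short cores of T cell factors; matches to different cores may share letters. The RUNX core TGTGGT was in 9 of 37 windows (24.3%), beside 16.8% of 32851 windows of the same length in the reference. The 9 were windows of Cd96, Il2rg, Il7r, Lat, Lck, Ptpn22, Trat1, Txk and Zap70. The ETS core CGGAAG was in 4 (10.8%, beside 16.9%), the E-box CAGCTG in 2 (5.41%, beside 16.3%) and the TCF1 core CTTTGAT in 3 (8.11%, beside 3.73%). The NFAT core GGAAAA was in 7 (18.9%, beside 23.4%) and the GATA core AGATAA in 6 (16.2%, beside 11.2%). A match is a run of letters and not a site of binding, and the genes called in either direction were not compared for it.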

How the data were processed

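RNA from 8 thymic lymphomas was sequenced from Illumina TruSeq libraries, per the labels' protocols. The authors deposited 1 table of FPKM per RefSeq transcript entry, quantile-normalised across libraries per its header (16589 entries, 13681 symbols). The submitters' processing notes name TopHat2 2.0, Cufflinks 2.0 and mm9; filters are not given in the sources used here. After quantile normalisation all libraries share a distribution, so shifts of all genes together cannot be seen, and no counting interval can be given because depth is unknown. For each symbol the entry with the highest mean was kept, and 35 symbols that a spreadsheet had turned into dates were restored. A gene was tested where 2 or more libraries reached an FPKM of 1. The log2(FPKM + 1) values were fitted by limma 3.58.1 (R 4.3.3) in 1 model of the 3 groups over all 8 libraries (5 residual degrees of freedom, intensity trend, two-sided). P-values were Benjamini-Hochberg adjusted over all genes tested, with a threshold of 0.05. A fold change on this scale understates the change of low genes, and fold values in the text are ratios of mean FPKM. The procedure was run on simulated data, where the only requirement was the right direction for most planted changes. No simulated library stood apart as ΔNp63 replicate 2 does, so that run does not test the calls that turn on it. Replicate numbers follow the order of deposition and pair nothing. Members, gene lists and alternatives were chosen with earlier results of these data known. Some genes of the marker and pathway lists are not reported here and enter no sum or count of those lists. Values in every library are given for the 2 members with the smallest p per role and comparison and for the 4 highest and 4 lowest log2FC per comparison without ΔNp63 replicate 2, and for some further members chosen after their values were seen. Alternatives were pseudocounts of 0.1 and 0.5, other filters, summed entries, entries on their own (added after seeing the data), 2-group fits, no trend, array weights, centring on Cd3d, Cd3e and Cd3g, and leaving out each library.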

Additional observations from a re-analysis of the deposited data

Results flagged for a closer look

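Cd96 is listed because its difference from control was not the same in the 2 deletion-labelled groups: it was 1.96 log2 units higher in the ΔNp73-labelled than in the ΔNp63-labelled group when ΔNp63 replicate 2 was left out (limma, SE 0.15, adjusted p = 0.00559), and higher in 3 of 3 ΔNp73-labelled libraries than in any ΔNp63-labelled library. With all libraries the difference was 2.38 (SE 0.34) and did not pass (adjusted p = 0.178), though its groups did not overlap then either.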

How the results depend on the processing

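No member passed with all 8 libraries under the main settings, other pseudocounts, other filters, summed entries, entries on their own or without the intensity trend, and leaving out any single library other than ΔNp63 replicate 2 also gave 0. Over the libraries left out in turn, members called ranged from 0 to 13 (ΔNp63-labelled against control), 0 to 18 (ΔNp73-labelled against control) and 0 to 1 (direct comparison), their medians from -0.45 to 0.01, -0.23 to -0.07 and -0.19 to 0.33, and all genes called from 3 to 2882, 0 to 4212 and 6 to 19; the highest count each time was without ΔNp63 replicate 2. The main counts of all genes were 12, 7 and 7. In the ΔNp73-labelled comparison this count was 18 and 11 with pseudocounts of 0.1 and 0.5 and 3 with each entry on its own. Fits of 2 groups alone gave 3 and 3856 genes in the comparisons with control and 16 members in the second. Array weights gave 4480, 6569 and 344 genes and 20, 21 and 3 members. Centring on the CD3 genes gave 5 and 476 genes in the comparisons with control, 1 member in each of the 3, and a members' median of 0.24 in the ΔNp73-labelled group. Of the values of 27 named genes in 48 comparisons, 66 alternatives newly passed, 778 kept direction and side of the threshold, and 17 turned direction, none of them past the threshold. In the ΔNp63-labelled comparison Il2rg became 0.13 with array weights and 0.055 on the CD3 scale. Leaving out libraries in turn, it ranged from -0.58 to 0.20, Lag3 from -0.065 to 1.11 (lowest without ΔNp63 replicate 1), Il2rb from -0.052 to 1.15 (lowest without replicate 3) and S1pr1 from -0.13 (without replicate 3, and -0.10 without replicate 1) to 1.33, each highest without replicate 2. Cd28 in the ΔNp73-labelled comparison became 0.26 on the CD3 scale. In the direct comparison, array weights turned Icos to -0.59 and Il2ra to -0.56. Leaving out libraries in turn there, Icos ranged from -0.80 to 0.87, Il2ra from -0.72 to 1.05, Nfatc3 from -0.13 to 0.60 and Il7r from -0.083 to 1.51, each lowest without ΔNp63 replicate 2 and highest without replicate 3. Nfatc2 became 0.080 with summed entries and 0.0026 on the CD3 scale, and ranged from -0.17 to 0.10. The cause of these turns was not tested. The stricter filter dropped Nfatc2. No paired analysis was possible because the labels give no replicate numbers. Groups of 2 and 3 libraries of unknown depth limit the precision of every value.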
